A study of Homo sapiens with 12 samples.

Results

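A set of 8 genes whose products bind or neighbour CD44 at the cell membrane was followed across 2 colon cancer cell lines that express different CD44 isoforms ectopically. They are the receptor MET, the ezrin, radixin and moesin genes (EZR, RDX and MSN, together ERM), the merlin gene NF2, the ankyrin-G gene ANK3, and the syndecan genes SDC1 and SDC4. They were chosen by name, by matching the gene symbol in the deposited expression table to the gene identifier in the count table, and make up 8 of 62426 annotated genes, of which 40400 had any count. All 8 were found, and all 8 passed the filter on low counts in both lines.

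HCT116 and SW480 are established lines from human colon carcinomas. In each line RNA was sequenced from CD44s-OE cells, CD44v6-OE cells and parental cells, with 2 libraries in each of the 6 groups. CD44s is the standard isoform without variable exons and CD44v6 carries variable exon v6; OE cells received the isoform on a plasmid by stable transfection and were selected with Geneticin, whereas the controls are labelled parental and no empty-vector library is among the 12, so the isoform cannot be told apart from transfection and selection in any OE versus parental comparison. The OE libraries are named as pools, and nothing in the labels says that the 2 libraries of a group came from separate cultures, so the p-values measure the spread between these libraries, which may be technical. The study asked how the CD44 isoforms alter gene expression in the 2 lines, and both groups of the CD44s-OE versus CD44v6-OE contrast were transfected and selected with Geneticin. The labels name 1 plasmid backbone for both isoforms, whereas the study's reagents name a different backbone for each, so the vectors may differ between the isoforms.

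CD44 is a transmembrane receptor for hyaluronan. Its cytoplasmic tail is bound by ERM proteins, which tie membrane proteins to actin filaments, by merlin, an ERM relative and tumour suppressor that works against that link, and by ankyrin, which joins membrane proteins to the spectrin skeleton. Isoforms that contain v6 are known as co-receptors that present hepatocyte growth factor (HGF) to MET, and syndecans, which carry heparan sulfate chains, hold growth factors such as HGF at the surface of epithelial cells.

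The genes lie on 8 chromosomes (hg19, as deposited). MET (ENSG00000105976) spans chr7:116312250-116438440 on the plus strand and EZR (ENSG00000092820) chr6:159186773-159240400 on the minus strand. RDX (ENSG00000137710) spans chr11:109735021-110167437 on the minus strand, MSN (ENSG00000147065) chrX:64808257-64961793 on the plus strand and NF2 (ENSG00000186575) chr22:29999545-30094587 on the plus strand. ANK3 (ENSG00000151150) spans chr10:61786056-62493248, SDC1 (ENSG00000115884) chr2:20400558-20425194 and SDC4 (ENSG00000124145) chr20:43953928-43977064, all on the minus strand. Counts were taken over all exons with regard to strand. Of the genes that overlap a member, ZC3H12C, on the strand opposite RDX, reached 478 counts in a library and none of the others exceeded 12 counts. The processed pseudogenes MSNP1, RDXP1 and RDXP2 reached at most 12, 1 and 0 counts.

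The sequence just before the start site is shown for the 3 members that passed in HCT116 CD44s-OE versus parental cells, SDC4, SDC1 and ANK3, because the same window can hold the short motifs of factors known from epithelial and inflammatory gene control. Each line gives the 250 bases before a RefSeq start (GRCh38.p14, minus strand, written 5′ to 3′ in the direction of transcription), with capitals for a match to the NF-κB consensus or to the E-box CACCTG on either strand. SDC4 is at chr20:45348425-45348674, SDC1 at chr2:20225476-20225725 and ANK3 at chr10:60733529-60733778.
SDC4: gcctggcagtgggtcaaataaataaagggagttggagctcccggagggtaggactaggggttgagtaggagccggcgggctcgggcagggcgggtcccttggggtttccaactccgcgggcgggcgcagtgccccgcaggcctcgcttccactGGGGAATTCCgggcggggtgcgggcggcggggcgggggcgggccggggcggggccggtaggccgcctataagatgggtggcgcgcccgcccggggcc
SDC1: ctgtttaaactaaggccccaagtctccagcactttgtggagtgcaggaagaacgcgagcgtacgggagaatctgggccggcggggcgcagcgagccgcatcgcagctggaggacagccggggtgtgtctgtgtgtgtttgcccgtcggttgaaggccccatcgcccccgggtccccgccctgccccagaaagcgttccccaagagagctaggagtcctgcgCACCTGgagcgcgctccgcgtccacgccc
ANK3: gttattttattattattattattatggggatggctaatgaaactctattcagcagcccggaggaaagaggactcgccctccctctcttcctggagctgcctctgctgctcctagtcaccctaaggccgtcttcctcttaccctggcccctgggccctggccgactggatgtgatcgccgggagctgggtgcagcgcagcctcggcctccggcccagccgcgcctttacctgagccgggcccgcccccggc
In SDC4 the capitals mark the NF-κB match, in SDC1 the E-box, and the ANK3 window held neither. The other SDC1 window and the other 3 ANK3 windows, which are not shown, also held neither, so the E-box lies before only 1 of the 2 SDC1 starts. The SDC4 window also held 8 matches to the GC box GGGCGG, the SDC1 window 1 and the ANK3 window 1. All 8 members were matched by symbol to 14 such windows, and the only other NF-κB match among them was in EZR. Over 35116 RefSeq windows of the same length, 5.21% held the NF-κB consensus, 17.5% the E-box and 42.6% the GC box. In SDC4 a GC box starts directly after the NF-κB match, GC box matches that overlap one another were each counted, and a match is only a description of the letters, as no binding was measured here.

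Total counts ranged from 43102156 to 52811889 per library. Levels are CPM, counts scaled to the library total after TMM normalization over all 12 libraries, and levels of different genes are compared only per kilobase of exon length. A gene passed when the edgeR quasi-likelihood test gave a Benjamini-Hochberg adjusted p under 0.1 over all genes tested in that fit; the study's stricter rule adds an absolute log2 fold change over 1.5. Total CD44, the gene that was introduced, passed in none of the 6 within-line comparisons, with log2 fold changes of OE over parental between -0.34 and 0.12. The antisense gene CD44-AS1 (ENSG00000255443) stood at 154 and 177 counts in the CD44v6-OE libraries of SW480 and at 97 and 119 counts in those of HCT116, against at most 3 counts in any of the other 8 libraries. It thus set every CD44v6-OE library apart, while neither gene checks the CD44s-OE label, and OE below means a library so labelled. The labelled tissue was checked with 10 colon epithelial markers, of which 7 exceeded 1 CPM in at least 1 library of each line, KRT20 only in HCT116 and VIL1 only in SW480. PTPRC, a defining leukocyte gene, was at 0 counts in 11 of the 12 libraries, summed leukocyte markers lay between 0.937 and 5.59 CPM, and summed endothelial markers between 0.664 and 2.14 CPM. Replicates of 1 group could differ: MET was 2.99-fold and MSN 1.76-fold apart between the SW480 parental libraries, and ANK3 was 2.58-fold apart between the SW480 CD44s-OE libraries. In these bulk samples, fewer cells of a type and less RNA per cell cannot be told apart.

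Among the 8 genes, SDC4, SDC1, ANK3 and EZR passed in at least 1 comparison within a line, and MET, RDX, MSN and NF2 passed in none of the 6. In HCT116 CD44s-OE versus parental cells 3 of 8 passed, SDC4 higher and SDC1 and ANK3 lower, where 14.2% of all genes tested passed. In HCT116 CD44v6-OE versus parental cells only SDC4 passed, and it was higher, against 1.53% of all genes. In SW480 CD44s-OE versus parental cells only EZR passed, and it was lower, against 4.72% of all genes. Between the isoforms, 1 member passed in SW480, ANK3, with CD44s-OE below CD44v6-OE, against 2.12% of all genes, and it also met the study's rule, as did 1.02% of all genes. No member passed with edgeR in SW480 CD44v6-OE versus parental cells (0.570% of all genes), where 2 members had an unadjusted p under 0.05 and 0 passed with DESeq2 and 0 with limma. No member passed with edgeR between the isoforms in HCT116 (0.813% of all genes), where 3 had an unadjusted p under 0.05, 2 passed with DESeq2 and 0 with limma. The 2 OE groups of a line share their parental libraries, so the OE versus parental comparisons are given side by side only.

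**Figure D1:**
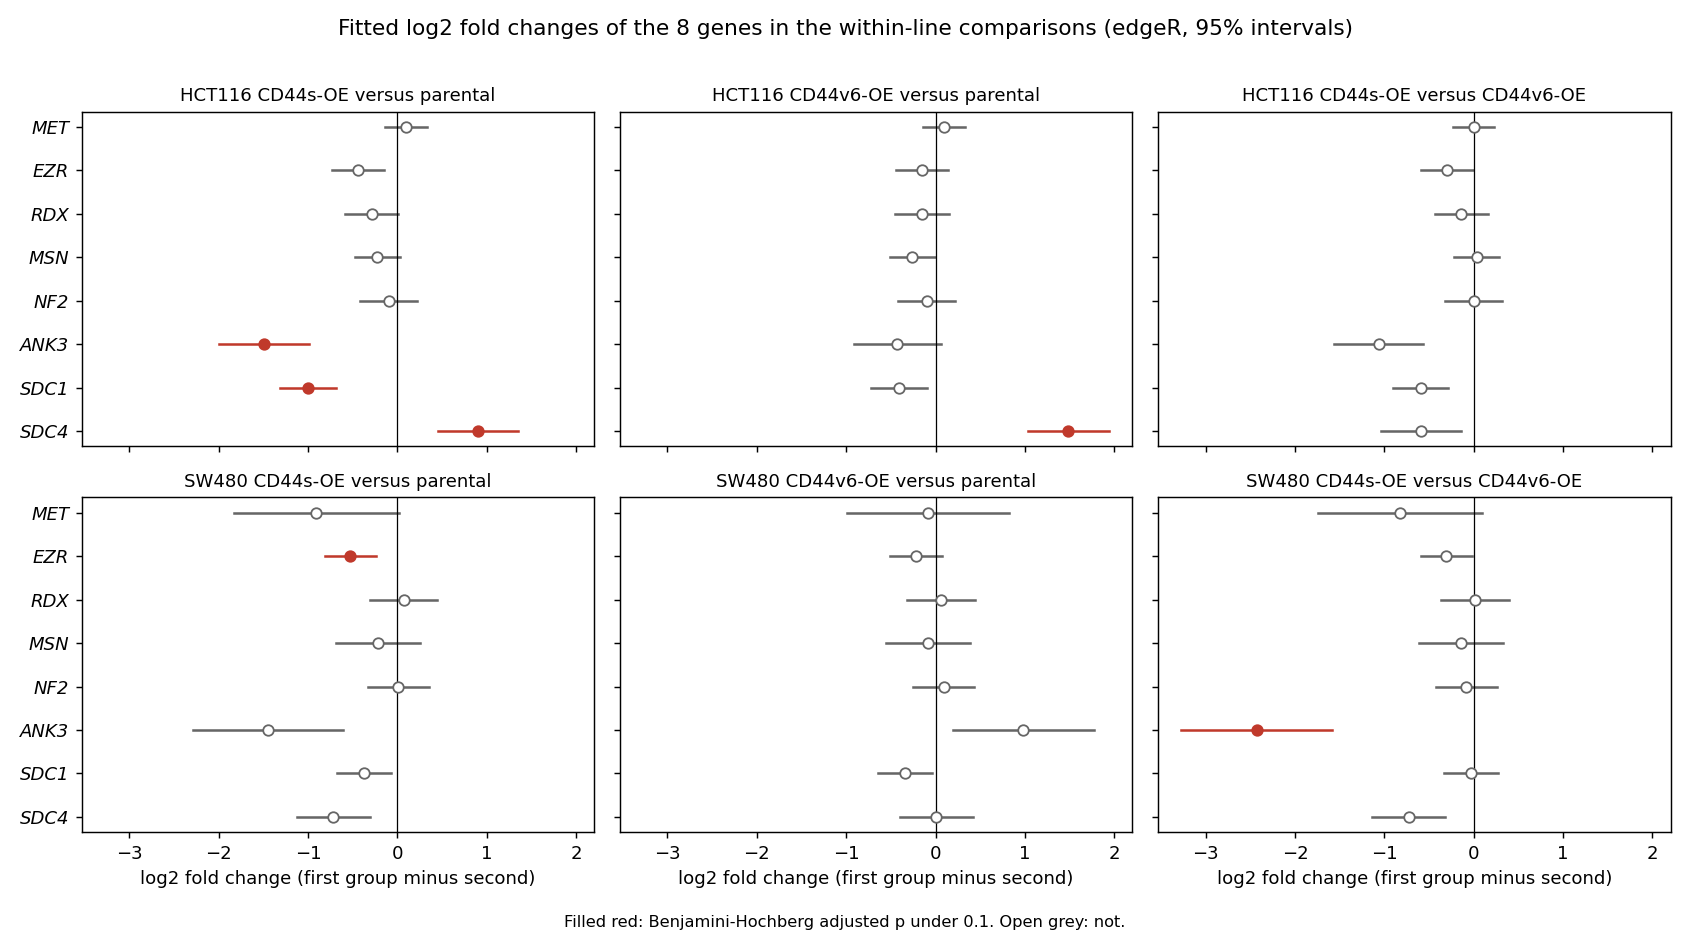
Fitted log2 fold changes of the 8 genes (points) with 95% intervals (lines) in the 3 comparisons within each line, first group minus second on the x axis; filled red points passed at an adjusted p under 0.1. SDC4 lies at 0.90 and 1.49 in the HCT116 CD44s-OE and CD44v6-OE comparisons with parental cells and at -0.72 in SW480 CD44s-OE cells, and ANK3 lies at -2.43 between the isoforms in SW480.

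The libraries of the groups compared did not overlap for 7 of 8 members in HCT116 CD44s-OE versus parental cells, where this held for 51.5% of all genes. The count was 5 of 8 in HCT116 CD44v6-OE versus parental cells (52.0% of all genes) and 4 of 8 between the isoforms in HCT116 (41.3%). In SW480 it was 4 of 8 for CD44s-OE versus parental cells (42.4% of all genes), 3 of 8 for CD44v6-OE versus parental cells (38.3%) and 5 of 8 between the isoforms (46.8%). The median log2 fold change over the members was -0.26 in HCT116 CD44s-OE versus parental cells, where it was 0.04 over all genes tested, and -0.45 in SW480 CD44s-OE versus parental cells, where it was 0.00 over all genes. In the CD44v6-OE versus parental comparisons it was -0.15 in HCT116 and -0.04 in SW480, against 0.00 and -0.01 over all genes.

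**Figure D2:**
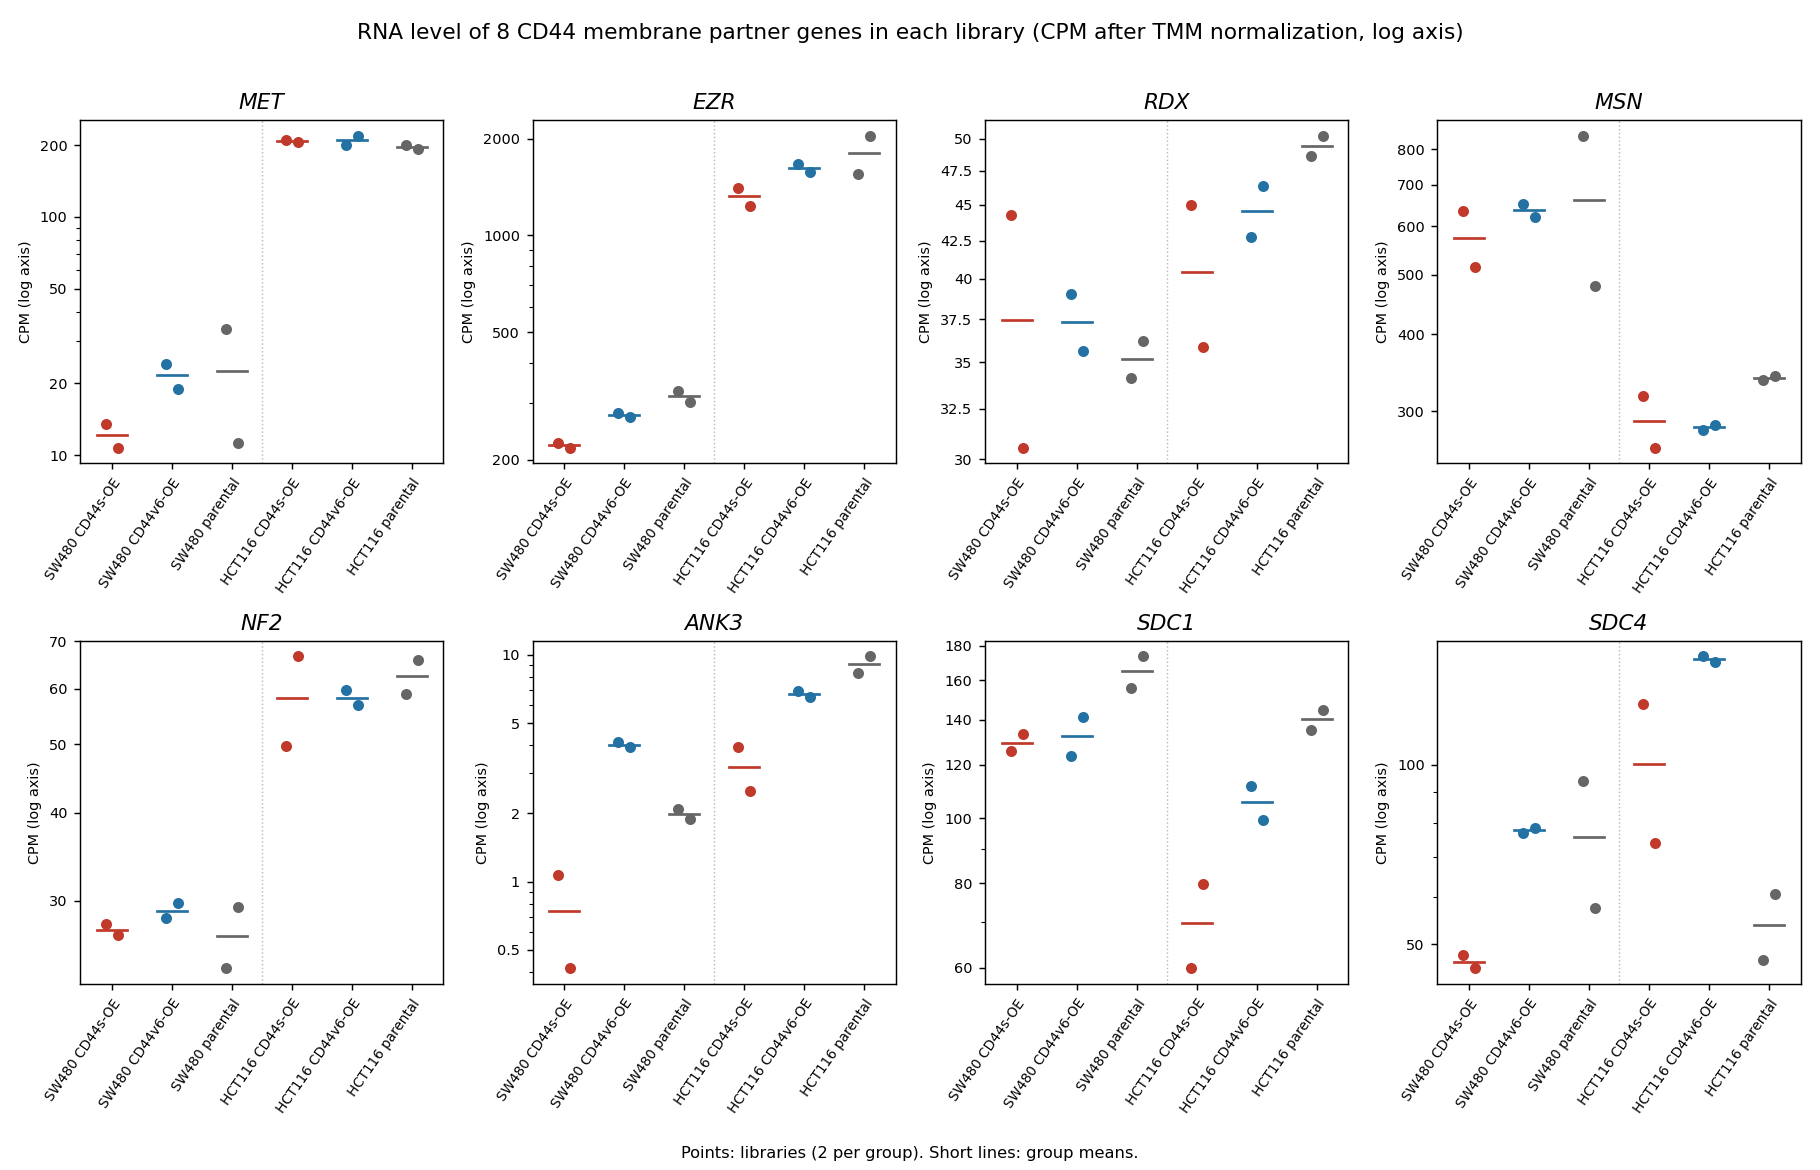
Level of each gene in CPM (y axis, log scale) in the 12 libraries (points), with SW480 groups left and HCT116 groups right of the dotted line and a short line at each group mean. SDC4 stands at 127 and 74.0 CPM in HCT116 CD44s-OE libraries and at 152 and 149 CPM in those of CD44v6-OE, above the parental 47.0 and 60.6 CPM, and ANK3 is lowest in SW480 CD44s-OE at 1.07 and 0.415 CPM.

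SDC4, a syndecan that sits in focal adhesions, rose in both HCT116 OE groups and did not pass in either SW480 OE group. In HCT116 it stood at 127 and 74.0 CPM in CD44s-OE libraries, at 152 and 149 CPM in CD44v6-OE and at 47.0 and 60.6 CPM in parental libraries. All 4 OE libraries lay above both parental libraries. The rise over parental cells was 1.87-fold in CD44s-OE (log2 fold change 0.90 ± 0.23 SE, adjusted p = 0.0458) and 2.80-fold in CD44v6-OE (1.49 ± 0.23, adjusted p = 0.0266). Both CD44v6-OE libraries were above both CD44s-OE libraries, but the difference of CD44s-OE from CD44v6-OE did not pass (log2 fold change -0.59, 95% interval -1.03 to -0.14, adjusted p = 0.398). In SW480 SDC4 stood at 47.9 and 45.6 CPM in CD44s-OE libraries, at 77.0 and 78.4 CPM in CD44v6-OE and at 94.1 and 57.6 CPM in parental libraries. The CD44s-OE libraries were below all 4 others, at a log2 fold change of -0.72 ± 0.21 over parental cells (adjusted p = 0.106) and of -0.72 over CD44v6-OE cells (adjusted p = 0.165), while the CD44v6-OE libraries lay between the parental ones. Over the 6 groups the order ran from HCT116 CD44v6-OE down to SW480 CD44s-OE, and apart from the top step each neighbouring pair of groups had overlapping libraries.

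The CD44s-OE effect on SDC4 was tested for a difference between the lines, SW480 minus HCT116, and passed at a log2 difference of -1.59 ± 0.35 (adjusted p = 0.0329). It was the only one of the 8 genes to pass, where 3.92% of all genes did and 2.01% also met the study's rule, which SDC4 met. For the CD44v6-OE effect no member passed with edgeR (0.409% of all genes; 2 with an unadjusted p under 0.05, 1 with DESeq2, 0 with limma), and SDC4 had a difference of -1.45 (adjusted p = 0.142). For the isoform contrast no member passed (0.491% of all genes; 2 with an unadjusted p under 0.05, 0 with DESeq2, 0 with limma), with SDC4 at -0.15 (95% interval -0.82 to 0.53). Each of these SDC4 calls was lost without at least 1 library, an omission that leaves a group with 1 library. In HCT116 the CD44s-OE call was lost without parental replicate 1 (adjusted p = 0.229) or 2 (0.181), and its log2 fold change was 0.46 without CD44s-OE replicate 1 and 1.22 without CD44s-OE replicate 2. The CD44v6-OE call was lost without any 1 of parental replicates 1 (adjusted p = 0.210) and 2 (0.204) and CD44v6-OE replicates 1 (0.152) and 2 (0.125), with log2 fold changes of 1.31 to 1.68. The line difference was lost without HCT116 parental replicate 1 (adjusted p = 0.129) or SW480 CD44s-OE replicate 1 (0.106) or 2 (0.177). In SW480 CD44s-OE versus parental cells, the SDC4 log2 fold change ranged from -1.03 (without parental replicate 2) to -0.32 with each library left out.

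SDC1, the main syndecan of epithelial cells, fell in HCT116 CD44s-OE cells. Its level was 59.8 and 79.8 CPM in CD44s-OE libraries, 112 and 99.4 CPM in CD44v6-OE and 135 and 145 CPM in parental libraries. The 3 groups did not overlap, with CD44s-OE lowest and CD44v6-OE between. The fall over parental cells was 2.00-fold in CD44s-OE (95% interval of the log2 fold change -1.31 to -0.69, adjusted p = 0.00907), while CD44v6-OE had -0.41 (adjusted p = 0.368) and the CD44s-OE over CD44v6-OE difference was -0.59 (95% interval -0.90 to -0.28, adjusted p = 0.198). The CD44s-OE call was lost without HCT116 parental replicate 2 (adjusted p = 0.104). In SW480 SDC1 stood at 126 and 133 CPM in CD44s-OE libraries, at 123 and 141 CPM in CD44v6-OE and at 156 and 174 CPM in parental libraries. Both OE groups lay below the parental libraries, without passing (log2 fold change -0.37, adjusted p = 0.265 in CD44s-OE and -0.35, adjusted p = 0.561 in CD44v6-OE). The isoforms overlapped in SW480, at -0.03 (95% interval -0.33 to 0.28). The line difference in the CD44s-OE effect on SDC1 was 0.65 (adjusted p = 0.150), so its fall is not shown to differ between the lines. SDC1 was highest in SW480 parental cells and lowest in HCT116 CD44s-OE cells, and HCT116 parental, SW480 CD44v6-OE and SW480 CD44s-OE, in that order, were neighbours with overlapping libraries.

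The members were set beside lists of other genes of the same pathways. For list and marker genes, up to 3 passing genes in each direction, list and within-line comparison were followed with libraries left out. Of these 53 calls, 10 held with each library left out in turn. They were ST14 (3 calls), SPINT1 (2), EPCAM in SW480 (2), and TIMP1, CDH1 and COL3A1 in HCT116 CD44s-OE versus parental cells. The other 43 were lost without at least 1 library.

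Genes that build or carry heparan sulfate were followed as a list of 29, of which 25 were tested in HCT116 and 24 in SW480. In HCT116 CD44s-OE versus parental cells 4 rose and 2 fell, where 14.2% of all genes passed, at a median log2 fold change of 0.04 over the list and 0.04 over all genes. GPC3 and GPC2, which encode heparan sulfate proteoglycans anchored by glycosylphosphatidylinositol, rose by log2 fold changes of 1.62 and 1.05 (adjusted p = 0.0707 and 0.0628), GPC3 on low counts, with 126 and 54 counts in CD44s-OE and 33 and 27 counts in parental libraries. GLCE, the epimerase that turns glucuronic into iduronic acid in the chains, rose by 0.75 (adjusted p = 0.0307). SULF2, which removes sulfate from finished chains, stood at 14.4 and 8.00 CPM in CD44s-OE libraries and 27.6 and 24.8 CPM in parental libraries and fell by 1.22 on the log2 scale (adjusted p = 0.0243), a call lost without HCT116 parental replicate 1 (adjusted p = 0.115) or 2 (0.149). HS6ST1, a sulfotransferase of the chains, fell by 0.51 (adjusted p = 0.0578). In the other 5 within-line comparisons none of the list passed with edgeR, with 2 to 4 genes at an unadjusted p under 0.05. DESeq2 passed 1 gene in HCT116 CD44v6-OE versus parental cells and 1 in SW480 CD44s-OE versus parental cells, and limma passed 0. Among 9 genes for proteases that shed CD44, syndecans or MET and their inhibitors, TIMP1, an inhibitor, and MMP14, a membrane protease, rose in HCT116 CD44s-OE versus parental cells, where 14.2% of all genes passed. TIMP1 stood at 569 and 426 CPM in CD44s-OE libraries, 281 and 273 CPM in CD44v6-OE and 213 and 230 CPM in parental libraries, a rise of 1.17 on the log2 scale over parental cells (adjusted p = 0.00418) and of 0.85 over CD44v6-OE cells (adjusted p = 0.0530). MMP14 rose by 0.65 (adjusted p = 0.0444). None of the shedding genes passed with edgeR in HCT116 CD44v6-OE versus parental cells or in any SW480 comparison, with 0 or 1 at an unadjusted p under 0.05, and DESeq2 passed 1 in SW480 CD44s-OE versus parental cells and limma 0.

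ANK3 fell in CD44s-OE cells, against CD44v6-OE cells in SW480 and against parental cells in HCT116. Its level was low: in SW480 the counts were 51 and 21 in CD44s-OE, 189 and 179 in CD44v6-OE and 83 and 95 in parental libraries. These are 1.07 and 0.415 CPM in CD44s-OE libraries, 4.12 and 3.92 CPM in CD44v6-OE and 2.10 and 1.90 CPM in parental libraries. No 2 of the SW480 groups overlapped, with the parental libraries in the middle. The difference of CD44s-OE from CD44v6-OE was 5.38-fold (log2 fold change -2.43 ± 0.43, adjusted p = 0.0186). Neither side passed against parental cells, with CD44s-OE at -1.45 ± 0.43 (adjusted p = 0.111) and CD44v6-OE at 0.98 ± 0.40 (adjusted p = 0.501). The log2 fold change was -3.26 without CD44s-OE replicate 1 and -1.90 without CD44s-OE replicate 2. The isoform call was lost without CD44s-OE replicate 2 (adjusted p = 0.224) or CD44v6-OE replicate 1 (0.137) or 2 (0.132).

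In HCT116 ANK3 stood at 3.91 and 2.52 CPM in CD44s-OE libraries, at 6.96 and 6.49 CPM in CD44v6-OE and at 8.28 and 9.86 CPM in parental libraries. Again no groups overlapped, and here the parental libraries were highest. ANK3 fell 2.82-fold in CD44s-OE cells (log2 fold change -1.49 ± 0.26, adjusted p = 0.0119), a call lost without HCT116 parental replicate 2 (adjusted p = 0.125). CD44v6-OE had -0.43 (95% interval -0.92 to 0.06, adjusted p = 0.576), and CD44s-OE over CD44v6-OE had -1.06 (adjusted p = 0.144). The line difference was 0.07 for the CD44s-OE effect (95% interval -0.96 to 1.10), 1.44 for the CD44v6-OE effect (adjusted p = 0.362) and -1.37 for the isoform contrast (adjusted p = 0.428). Over the 6 groups ANK3 was highest in HCT116 parental cells and lowest in SW480 CD44s-OE cells, and no neighbouring groups in that order overlapped.

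Of 17 other genes of the ankyrin and spectrin membrane skeleton 14 were tested in each line. In HCT116 CD44s-OE versus parental cells 1 rose and 2 fell, where 14.2% of all genes passed, at a list median of -0.04 (0.04 over all genes). EPB41, which joins spectrin to actin, fell by 0.88 on the log2 scale (adjusted p = 0.0179), and SPTBN5, a beta spectrin, rose by 1.74 (adjusted p = 0.0179). The EPB41 call was lost without HCT116 parental replicate 1 (adjusted p = 0.108). None of the list passed with edgeR in the other 5 within-line comparisons, with 0 to 3 genes at an unadjusted p under 0.05. DESeq2 passed 1 in both other HCT116 comparisons and 1 in SW480 CD44s-OE versus parental cells, where limma also passed 1.

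EZR, the main ERM gene of epithelial cells, fell in SW480 CD44s-OE cells. It stood at 226 and 218 CPM in CD44s-OE libraries, at 279.8 and 272.9 CPM in CD44v6-OE and at 328 and 303 CPM in parental libraries. The 3 groups did not overlap, with CD44s-OE lowest and CD44v6-OE in the middle. The fall was 1.44-fold over parental cells (log2 fold change -0.52 ± 0.15, adjusted p = 0.0944), while CD44v6-OE had -0.22 (adjusted p = 0.740) and CD44s-OE over CD44v6-OE had -0.31 (adjusted p = 0.498). The call lay close to the threshold and was lost without parental replicate 1 (adjusted p = 0.132), CD44s-OE replicate 1 (0.227) or 2 (0.470), or CD44v6-OE replicate 1 (0.227) or 2 (0.232). In HCT116 EZR stood at 1405 and 1238 CPM in CD44s-OE libraries, at 1670 and 1575 CPM in CD44v6-OE and at 1556 and 2043 CPM in parental libraries. Both CD44s-OE libraries were lowest, with -0.44 ± 0.15 over parental cells (adjusted p = 0.101), and CD44v6-OE lay within the parental range, with -0.15 (adjusted p = 0.766). The line difference in the CD44s-OE effect was -0.06 (95% interval -0.48 to 0.37).

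MSN and RDX, the other ERM genes, did not pass within either line. MSN stood at 635 and 514 CPM in SW480 CD44s-OE, 653 and 621 CPM in CD44v6-OE and 842 and 479 CPM in parental libraries, so both OE groups lay within the parental range. In HCT116 MSN stood at 317 and 262 CPM in CD44s-OE libraries, 280.2 and 285 CPM in CD44v6-OE and 337 and 342 CPM in parental libraries, with all OE libraries below the parental ones (log2 fold change -0.23, adjusted p = 0.307 in CD44s-OE and -0.26, adjusted p = 0.496 in CD44v6-OE). RDX stayed between 30.6 and 50.2 CPM in all 12 libraries, and its within-line log2 fold changes lay between -0.29 and 0.07. Only HCT116 parental cells, at 48.6 and 50.2 CPM, did not overlap the next RDX group, HCT116 CD44v6-OE at 42.7 and 46.3 CPM.

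The 3 ERM genes were also expressed as shares of their summed level per kilobase. EZR made up 40.3 ± 3.12% in SW480 CD44s-OE, 43.1 ± 0.456% in CD44v6-OE and 46.4 ± 8.08% in parental cells (SD, n = 2 each), and 88.3 ± 0.503%, 90.4 ± 0.505% and 89.6 ± 1.68% in the same groups of HCT116. Single libraries ranged from 38.1% to 52.2% in SW480 and from 88.0% to 90.8% in HCT116, so the lines did not overlap. MSN held most of the rest, at 57.1 ± 2.71% in CD44s-OE cells of SW480, 54.7 ± 0.374% in CD44v6-OE cells and 51.5 ± 8.62% in parental cells, and RDX held between 0.961% and 2.60% as a group mean. Without division by exon length EZR made up 25.0% to 37.0% in SW480 libraries and 79.5% to 83.9% in HCT116 libraries, so the order of the lines did not depend on the length used.

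**Figure D3:**
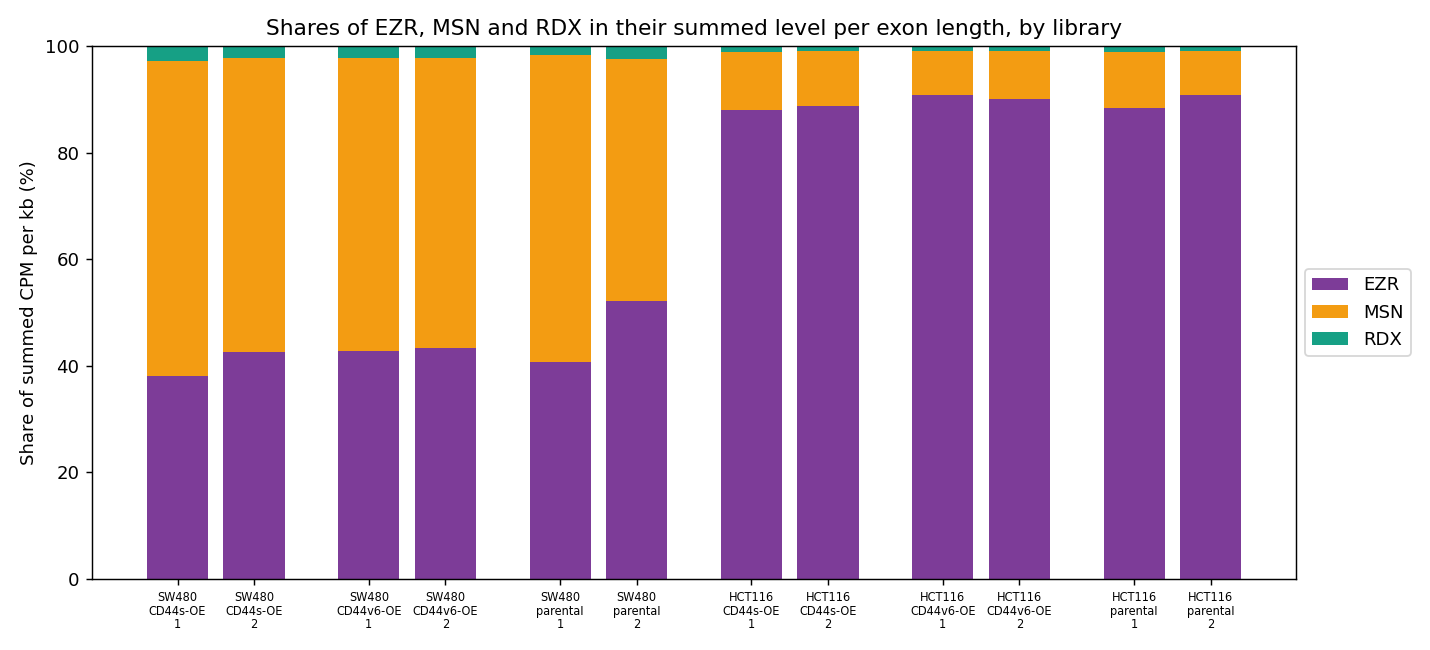
Share of EZR, MSN and RDX in their summed CPM per kilobase of exon (y axis, percent; stacked bars add to 100) in each of the 12 libraries, SW480 left and HCT116 right. EZR is the larger share in every HCT116 library, with group means of 88.3% to 90.4%, and MSN in every SW480 library except parental replicate 2.

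NF2 did not pass within either line. It stood at 27.8 and 26.8 CPM in SW480 CD44s-OE, 28.4 and 29.8 CPM in CD44v6-OE and 24.1 and 29.4 CPM in parental libraries, and at 49.8 and 66.7 CPM in HCT116 CD44s-OE libraries, 59.6 and 56.9 CPM in CD44v6-OE and 58.9 and 65.9 CPM in parental libraries. The OE libraries overlapped the parental ones in each line, and the within-line log2 fold changes lay between -0.10 and 0.09. Of 28 genes for partners and kinases of ERM proteins and merlin 26 were tested in HCT116 and 27 in SW480. In HCT116 CD44s-OE versus parental cells 3 rose and 3 fell, where 14.2% of all genes passed (list median -0.02, all genes 0.04). SLK, a kinase that phosphorylates ERM proteins, stood at 49.3 and 64.0 CPM in CD44s-OE libraries, 61.0 and 61.7 CPM in CD44v6-OE and 29.1 and 28.9 CPM in parental libraries. It rose by 0.97 in CD44s-OE (adjusted p = 0.00918) and by 1.08 in CD44v6-OE (adjusted p = 0.0189), where it was the only gene of the list to pass. The CD44s-OE call of SLK was lost without parental replicate 2 (adjusted p = 0.116), and the CD44v6-OE call without any 1 of the 4 libraries compared (adjusted p 0.159 to 0.223).

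The others that rose in HCT116 CD44s-OE were SELPLG, a leukocyte adhesion ligand that binds ERM proteins, at 1.65 (adjusted p = 0.0310), and SPN, the sialophorin gene, whose parental libraries had 2 and 2 counts, below the 6 counts that a count of 0 allows (3 read pairs, per library), against 22 and 8 counts in CD44s-OE. PAK2, a kinase that phosphorylates merlin, DCAF1, a ubiquitin ligase subunit inhibited by merlin, and WWC1, the Hippo pathway scaffold KIBRA that works with merlin, fell by 0.47, 0.47 and 0.46 on the log2 scale (adjusted p = 0.0572, 0.0504 and 0.0686). In SW480 CD44s-OE versus parental cells 2 of the 27 rose and 2 fell, where 4.72% of all genes passed (list median -0.09, all genes 0.00). WWC1 stood at 107 and 103 CPM in CD44s-OE libraries, 184 and 189 CPM in CD44v6-OE and 177 and 177 CPM in parental libraries. It fell by 0.77 over parental cells (adjusted p = 0.0180) and by 0.82 over CD44v6-OE cells (adjusted p = 0.0186). The call over CD44v6-OE cells was lost without any 1 of the 4 libraries compared. LATS2, a Hippo pathway kinase, fell by 0.98 over parental cells (adjusted p = 0.0669), SPN rose by 1.63 (adjusted p = 0.0661), and AMOTL1, an angiomotin that binds merlin, had 211 and 149 counts in CD44s-OE against 14 and 6 counts in parental libraries (adjusted p = 0.0102). PODXL, a sialomucin that binds ezrin, was lower by 0.84 in SW480 CD44s-OE against CD44v6-OE cells (adjusted p = 0.0935). The WWC1 fall over parental cells was lost without SW480 CD44s-OE replicate 2 (adjusted p = 0.202), and in HCT116 it was lost without parental replicate 1 (0.125) or 2 (0.373) or CD44v6-OE replicate 1 (0.168) or 2 (0.167). No gene of the list passed with edgeR between the isoforms in HCT116 or in SW480 CD44v6-OE versus parental cells, with 1 and 2 genes at an unadjusted p under 0.05 (DESeq2 0 and 1, limma 0 in both).

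MET, the HGF receptor, did not pass in any comparison within a line. In SW480 it stood at 13.5 and 10.7 CPM in CD44s-OE libraries, 24.2 and 19.0 CPM in CD44v6-OE and 33.7 and 11.3 CPM in parental libraries. The parental libraries enclosed both OE groups except for CD44s-OE replicate 2, which lay just below them. The log2 fold change over parental cells was -0.91 ± 0.47 in CD44s-OE (95% interval -1.82 to 0.01, adjusted p = 0.425) and -0.08 in CD44v6-OE (95% interval -0.99 to 0.83, adjusted p = 0.984). The CD44s-OE value turned on the parental library used: it was 0.084 (adjusted p = 0.906) without parental replicate 1 and -1.49 (adjusted p = 0.000171) without parental replicate 2. In HCT116 MET stood at 211 and 207 CPM in CD44s-OE libraries, 199.6 and 219 CPM in CD44v6-OE and 200 and 192 CPM in parental libraries. Its log2 fold changes there were 0.09 in both OE groups over parental cells (95% interval -0.14 to 0.33) and 0.00 between the isoforms (-0.24 to 0.23).

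Genes of HGF and MET signaling, without MET itself, were followed as a list of 20, of which 18 were tested within each line. In SW480 CD44s-OE versus parental cells 4 of 18 fell and none rose, where 4.72% of all genes passed (list median -0.06, all genes 0.00). SPINT1 and SPINT2 encode inhibitors of the proteases that activate HGF, ST14 encodes matriptase, which activates HGF, and MST1R encodes a receptor related to MET. SPINT1 stood at 48.8 and 47.6 CPM in CD44s-OE libraries, 127 and 137 CPM in CD44v6-OE and 139 and 148 CPM in parental libraries, with CD44s-OE below all others. It fell by 1.59 on the log2 scale over parental cells (adjusted p = 0.000572) and by 1.45 over CD44v6-OE cells (adjusted p = 0.000820). ST14 stood at 112 and 108 CPM in CD44s-OE libraries, 315 and 366 CPM in CD44v6-OE and 304 and 295 CPM in parental libraries. It fell by 1.46 over parental cells (adjusted p = 0.00101) and by 1.62 over CD44v6-OE cells (adjusted p = 0.000579). SPINT2 fell by 0.99 (adjusted p = 0.00652) and 1.08 (adjusted p = 0.00517) in the same comparisons, calls lost without CD44s-OE replicate 2 (adjusted p = 0.114 and 0.119). By the same test, though named after their values were seen, MST1R fell by 0.81 over parental cells (adjusted p = 0.0553), and LRIG1, which restrains receptor tyrosine kinases, was lower by 0.90 in CD44s-OE against CD44v6-OE cells (adjusted p = 0.0607). Neither call was followed with libraries left out.

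In HCT116 CD44s-OE versus parental cells 2 of the 18 rose and 1 fell, where 14.2% of all genes passed (list median -0.09, all genes 0.04). ST14 again was the gene that fell, at 165 and 96.1 CPM in CD44s-OE libraries, 299.9 and 265 CPM in CD44v6-OE and 331 and 341 CPM in parental libraries, with CD44s-OE below all others. Its log2 fold change was -1.36 over parental cells (adjusted p = 0.00910) and -1.11 over CD44v6-OE cells (adjusted p = 0.0805), and the second call was lost without any 1 of the parental or CD44v6-OE libraries (adjusted p 0.188 to 0.572). HGFAC, an HGF activator protease, and MST1, the ligand of the MST1R receptor, rose by 2.87 and 1.47 (adjusted p = 0.0185 and 0.0705), HGFAC on 45 and 50 counts in CD44s-OE against 9 and 4 counts in parental libraries. The count of 4 lay below the 6 counts that a count of 0 allows. None of the list passed with edgeR in the CD44v6-OE versus parental comparisons, nor with DESeq2 or limma, with 3 genes in HCT116 and 0 in SW480 at an unadjusted p under 0.05.

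Parental SW480 and HCT116 cells differed in 6 of the 8 genes, against 60.9% of all genes tested, and 3 members met the study's rule, against 29.0%. The libraries of the lines did not overlap for 7 of 8 members, as for 75.9% of all genes. MET stood at 33.7 and 11.3 CPM in SW480 and at 200 and 192 CPM in HCT116, an 8.75-fold lower level in SW480 (log2 fold change -3.13 ± 0.41, adjusted p = 0.000148), which was -4.12 without SW480 parental replicate 1 and -2.54 without SW480 parental replicate 2. EZR was 5.70-fold lower in SW480 (-2.51 ± 0.16, adjusted p = 2.01e-08), ANK3 4.54-fold lower (-2.18 ± 0.35, adjusted p = 0.000132) and NF2 2.33-fold lower (-1.22 ± 0.17, adjusted p = 3.16e-05). RDX was lower by 0.49 (adjusted p = 0.0332), a call lost without HCT116 parental replicate 2 (0.118) or SW480 parental replicate 1 (0.112), and MSN was 1.95-fold higher in SW480 (0.96 ± 0.21, adjusted p = 0.00163). The syndecans did not pass, with SDC1 at 0.24 (95% interval -0.07 to 0.54) and SDC4 at 0.49 (95% interval 0.01 to 0.97, adjusted p = 0.105). The line also set the largest gap in the order of the 6 group means of MET, EZR, NF2 and MSN, for which every library of 1 line lay above every library of the other. Of the lists, 6 genes of HGF and MET signaling were higher and 4 lower in SW480 of 19 tested, 13 and 9 of 27 for ERM and merlin partners, 9 and 5 of 14 for the ankyrin and spectrin skeleton, 4 and 13 of 25 for heparan sulfate genes, and 4 and 2 of 9 for the shedding genes.

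**Figure D4:**
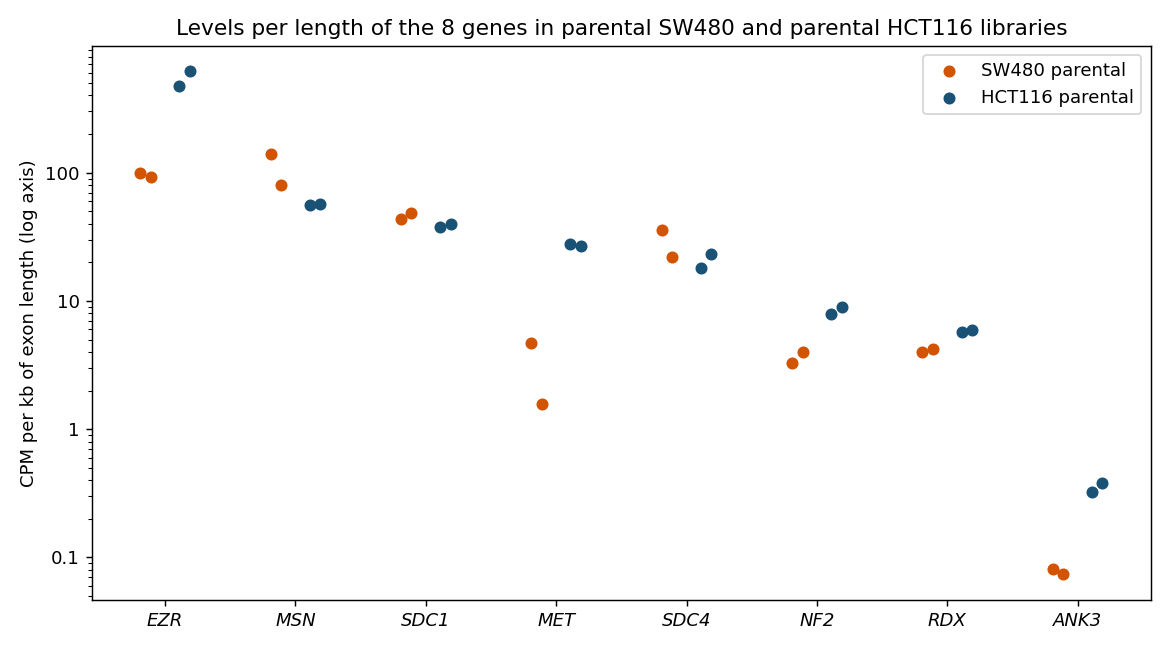
Level per exon length (CPM per kilobase, y axis, log scale) of the 8 genes in the SW480 parental libraries (left points of each gene) and the HCT116 parental libraries (right points). EZR averages 95.7 in SW480 and 546 in HCT116, MET 3.11 and 27.1, and ANK3 is lowest of the 8 in both lines at 0.0775 and 0.352.

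Per kilobase, MSN and EZR led in SW480 parental cells, at 110 ± 42.8 and 95.7 ± 5.29 CPM per kb (SD, n = 2), and their libraries overlapped. SDC1 followed at 45.7 and SDC4 at 29.0 CPM per kb, and RDX, NF2 and MET lay close together at 4.13, 3.62 and 3.11 CPM per kb. In HCT116 parental cells EZR led at 546 ± 104 CPM per kb, ahead of MSN at 56.7, SDC1 at 38.8, MET at 27.1, SDC4 at 20.6, NF2 at 8.44 and RDX at 5.80 CPM per kb. ANK3, whose merged exons span 25759 bases, was last in both lines, at 0.0775 CPM per kb in SW480 and 0.352 CPM per kb in HCT116.

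Markers of cell types moved with the same comparisons. In SW480 CD44s-OE versus parental cells 6 of 7 colon epithelial markers tested fell, where 4.72% of all genes passed, among them CDH1 at -3.43 and EPCAM at -1.80 on the log2 scale (adjusted p = 0.0832 and 0.000548) and the intestinal transcription factor gene CDX2 at -1.15 (adjusted p = 0.0153). The other marker tested, VIL1, went the other way without passing. Its group means were 16.1 CPM in CD44s-OE, 19.7 CPM in CD44v6-OE and 9.23 CPM in parental cells. The summed epithelial markers were 8183 and 10077 CPM in CD44s-OE libraries, 15017 and 13726 CPM in CD44v6-OE and 18924 and 17080 CPM in parental libraries. In HCT116 CD44s-OE cells CDH1 and EPCAM fell by 1.61 and 1.14 (adjusted p = 0.00541 and 0.00908), KRT20 rose by 1.13 (adjusted p = 0.0495), and the sums of all groups overlapped, between 6048 and 8470 CPM. Summed fibroblast markers, mostly the collagen genes COL1A1 and COL3A1, were 33.4 and 56.4 CPM in HCT116 CD44s-OE libraries, 35.0 and 31.7 CPM in CD44v6-OE and 19.3 and 13.7 CPM in parental libraries. In SW480 the sums lay between 2.17 and 5.28 CPM. COL3A1 rose in both HCT116 OE groups, to 381 and 1053 counts in CD44s-OE and 44 and 54 counts in CD44v6-OE. The HCT116 parental libraries had 6 and 6 counts of COL3A1, no more than a count of 0 allows. The fibroblast markers DCN and PDGFRA stayed at or below 0.121 CPM in every library. COL1A1 rose by 0.97 in CD44s-OE and by 1.02 in CD44v6-OE (adjusted p = 0.0302 and 0.0806), and PDGFRB fell by 2.00 in CD44s-OE (adjusted p = 0.0982). In SW480 the fibroblast gene LUM had 22 and 40 counts in CD44s-OE and 32 and 24 counts in CD44v6-OE. The SW480 parental libraries had 1 and 1 counts of LUM, below the 6 counts that a count of 0 allows. The leukocyte genes LYZ and CD14 rose by 2.11 and 1.30 in SW480 CD44s-OE (adjusted p = 0.0780 and 0.0897). Both leukocyte genes were low and were also above parental cells in SW480 CD44v6-OE, without passing there. LYZ averaged 1.01 CPM in CD44s-OE, 0.972 CPM in CD44v6-OE and 0.232 CPM in parental cells, and CD14 3.63, 2.40 and 1.46 CPM. Between the isoforms CDH1 was lower in HCT116 CD44s-OE by 1.43 (adjusted p = 0.0384), and EPCAM and CDX2 were lower in SW480 CD44s-OE by 1.71 and 0.92 (adjusted p = 0.000565 and 0.0581). The part of these markers in the results on the 8 genes was not tested.

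The genes most like each of the 4 members that passed against parental cells were ranked by Pearson's r of log2 CPM, centred on the mean of each line, over the 12 libraries and 11770 candidate genes. This is a description of libraries that share lines, groups and depth. For ANK3 they were MARVELD3 (r = 0.978), MBP (0.965) and SMYD4 (0.963), and for EZR they were FAM83H (0.969), ELAC2 (0.965) and YKT6 (0.951). For SDC1 they were RBM19 (0.973), AIFM1 (0.958) and FH (0.954), and for SDC4 RAET1L (0.953), ZC3H12A (0.925) and NFKBIA (0.924). Among the 8 genes themselves the highest r on the same scale were 0.78 for MET with MSN, both of which were highest for their line in SW480 parental replicate 1, and 0.74 for EZR with ANK3, both lowest in CD44s-OE cells of each line. SDC4 and SDC1 had r = -0.36.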

How the data were processed

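RNA of 12 libraries from 2 established cell lines, with 2 libraries in each of 6 groups taken from the labels, was analysed from the deposited tables. The authors filtered reads with SOAPnuke, aligned them to hg19 with STAR 2.7.9a and counted them over GENCODE exons with featureCounts of Subread 2.0.3, reverse-stranded; per the file headers the counts are raw, and both reads of a pair are assumed to add to them. The deposited variance-stabilized values, on a log2-like scale, were made by the authors with DESeq2 1.30.1 and served only for symbols and for the limma alternative. Duplicates were marked, not stated to be removed. The floors on low counts cover counting error only, whereas the intervals rest on the fitted SE, which includes the spread between libraries.

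Each line (6 libraries) was fitted with edgeR 4.0.16 in R 4.3.3: TMM normalization, filterByExpr and robust quasi-likelihood tests, p-values being adjusted by Benjamini-Hochberg over all genes tested (17335 in HCT116, 17539 in SW480). A fit over all 12 libraries (19567 genes) gave the parental line comparison and the line differences. Intervals are 1.96 SE either side. They are approximate and narrower than the quasi-likelihood test implies with so few libraries. An interval can therefore lie on 1 side of 0 where the unadjusted p is above 0.05. Log2 CPM for likeness used a prior count of 2 and genes with a mean of at least 1. A count of 0 allows 3 read pairs, or 6 counts. Scripts were tested on simulated counts. Sequences and start sites are from RefSeq (GRCh38.p14).

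Alternatives were RLE size factors, no filter or a mean count minimum of 50, non-robust dispersion (robust=FALSE), a replicate block, DESeq2 1.42.0, limma 3.58.1 on the authors' values, halved counts, only the groups compared, other thresholds and each library left out. The 8 genes, the lists and the tests were chosen with earlier results of these data known. In the lists, up to 3 passing genes in each direction are named per within-line comparison, without 1 gene that is not reported here and with MST1R and LRIG1 added after their values were seen. For list genes the alternatives were added after seeing the data. Whether replicate numbers pair the samples was not settled, and the main fits used no replicate block.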

Additional observations from a re-analysis of the deposited data

Results flagged for a closer look

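The CD44s-OE effect on SDC4 differed between the lines in the test of that difference: SW480 minus HCT116 was -1.59 on the log2 scale (SE 0.35, adjusted p = 0.0329), with SDC4 below both parental libraries in both SW480 CD44s-OE libraries and above both parental libraries in both HCT116 CD44s-OE libraries. The difference ranged from -1.93 to -1.15 when each library was left out in turn. Groups of 2 libraries cannot show a single library far from the rest.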

How the results depend on the processing

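No member passed HCT116 CD44s-OE versus parental cells, CD44v6-OE versus parental cells or SW480 CD44s-OE versus parental cells under the study's rule (0 in each), and 3 of 6 did between the parental lines. Without a filter on low counts, 3 members passed between the isoforms in HCT116, 4 in SW480 CD44s-OE versus parental cells, 3 between the isoforms in SW480 and 2 for the line difference in the CD44v6-OE effect, in place of 0, 1, 1 and 0. DESeq2 passed 2, 3, 2 and 1 in those comparisons, and 2 in place of 1 for the line difference in the CD44s-OE effect. With only the groups compared in the fit, 2 members passed in HCT116 CD44v6-OE versus parental cells, 0 in SW480 CD44s-OE versus parental cells, 3 between the isoforms in SW480 and 2 for the line difference in the CD44v6-OE effect. The EZR call in SW480 CD44s-OE cells was lost with robust=FALSE (0 members left), at an adjusted p under 0.05 (0) and with limma (adjusted p = 0.105). In HCT116 CD44s-OE cells EZR, not called above, passed with RLE size factors (adjusted p = 0.0967), halved counts (0.0931) and DESeq2 (0.0645). The causes were not tested.

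Whether replicate numbers pair the samples was not settled. Over the pairs of groups, same-numbered deviations correlated at 0.26, 0.17 and 0.08 in HCT116, all positive, and at -0.16, -0.26 and 0.13 in SW480. With a replicate block, 2860 genes in place of 2455 passed in HCT116 CD44s-OE versus parental cells, 393 in place of 266 in CD44v6-OE versus parental cells and 275 in place of 141 between the isoforms. In SW480 it was 727 in place of 828, 89 in place of 100 and 363 in place of 371 in the same comparisons. With the replicate block 1 member passed between the isoforms in HCT116, in place of 0, 0 passed in SW480 CD44s-OE versus parental cells, in place of 1, and RDX no longer passed between the parental lines (adjusted p = 0.131).

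With each library left out in turn, the number of members passing ranged from 0 to 6 in HCT116 CD44s-OE versus parental cells, 0 to 2 in CD44v6-OE versus parental cells and 0 to 3 between the isoforms. It ranged from 0 to 5, 0 to 1 and 0 to 3 in the same SW480 comparisons, from 5 to 7 between the parental lines, and from 0 to 2, 0 to 1 and 0 to 0 for the line differences in the CD44s-OE effect, the CD44v6-OE effect and the isoform contrast. The lone library left in a group is then taken to vary like the other groups. The direction turned for 1 result: MET in SW480 CD44s-OE versus parental cells, -0.91 with all libraries, ranged from -1.49 (without SW480 parental replicate 2) to 0.084 (adjusted p = 0.906, without parental replicate 1). Of the other fold changes of members followed under these omissions, 210 kept their direction and their side of the threshold, 20 passed newly and 21 no longer passed; under the other alternatives the counts were 290, 26 and 14. Of the list genes named, 128 such results no longer passed with a library left out and 190 did. In 8 cases a gene was filtered out and in 1 case DESeq2 gave no adjusted p.

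The number of all genes passing moved by more than 1.5 times with DESeq2 in HCT116 CD44v6-OE versus parental cells (594 in place of 266), between the isoforms in HCT116 (516 in place of 141) and in SW480 (699 in place of 371), in SW480 CD44s-OE versus parental cells (1368 in place of 828) and CD44v6-OE versus parental cells (334 in place of 100). For the line differences in the CD44s-OE effect, the CD44v6-OE effect and the isoform contrast, DESeq2 gave 1623, 357 and 347 in place of 768, 80 and 96. With only the groups compared these were 354, 211 and 223. The SW480 numbers were then 529 in place of 828 for CD44s-OE and 14 in place of 100 for CD44v6-OE versus parental cells. Between the isoforms it was 1202 in place of 371 in SW480 and 48 in place of 141 in HCT116. It was 1791 in place of 266 in HCT116 CD44v6-OE versus parental cells, and 1056 in place of 2455 in HCT116 CD44s-OE versus parental cells. With each library left out it ranged from 257 (without HCT116 parental replicate 2) to 5231 (without CD44s-OE replicate 1) there, from 7 (without HCT116 parental replicate 2) to 1858 (without CD44s-OE replicate 2) in CD44v6-OE versus parental cells, and from 7 to 2358 between the isoforms. In SW480 it ranged from 102 (without CD44s-OE replicate 2) to 2609 (without parental replicate 2), from 13 to 899 and from 49 to 1251 in the same comparisons. A level of ANK3 near 0.415 CPM rests on 21 counts, which limits its precision in that library.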
